A study of Populus deltoides with 38 samples.

Results

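Leaves of the poplar Populus deltoides held 54 loci whose level was higher with cadmium (Cd) whichever of 3 sulfate supplies the plants had. The 54 were selected on the mRNA libraries, among 17555 loci with a mean of at least 5 FPKM (fragments per kilobase of transcript, scaled to library size) in at least 1 of 6 groups and 39572 loci in all. A locus was taken where the mean of log2(FPKM + 1) with Cd exceeded that without Cd by at least 0.6, a 1.52-fold difference on that scale, at each of the 3 sulfate levels. The Cd differences therefore chose the loci and are given as a description, without a test. The difference between sulfate levels, the small RNA libraries and the degradome were not used by the rule, and the tests of the 54 loci rest on them. Loci cut by small RNAs, none of them among the 54, were tested for Cd on the same mRNA libraries that the rule used.

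Rooted stem cuttings were grown for 8 weeks, moved to hydroponics and supplied for 12 days with sulfate at 0 µM (called low), 100 µM (middle) or 1500 µM (high). They then stayed at that sulfate for another 21 days with either no Cd or 50 µM CdCl2. The 6 groups are -CdL, -CdM and -CdH without Cd and +CdL, +CdM and +CdH with it, and the controls were rooted cuttings in hydroponics like the treated plants. Each group had 3 mRNA and 3 small RNA libraries, and 1 degradome pool of 9 RNAs was made per Cd level. Low sulfate here means none added. The labels do not say which plants each library came from, so a p-value sets effects only against the spread among the libraries at hand, which may be technical. A sample is bulk leaf RNA, so fewer cells of a type and less RNA per cell cannot be told apart. Leaf markers were not checked, because the locus identifiers matched no gene name in the reference table used here, and loci are named by identifier only.

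Cd is a toxic metal that plants take up alongside nutrient metals, and sulfate supplies the sulfur of glutathione and of the chelators that bind Cd. MicroRNAs (miRNAs) are cut from hairpins in longer transcripts and guide the cleavage of other transcripts. In Arabidopsis, miR398, miR408 and miR397 accumulate when copper is short and act on transcripts of copper proteins, and miR399 accumulates when phosphate is short and acts on a ubiquitin-conjugating enzyme of phosphate signalling. miR1444 is a Populus miRNA that acts on transcripts of polyphenol oxidases, which are also copper enzymes.

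Of the 54 loci, 7 held a whole miRNA hairpin of the small RNA table. These 7 cover 6 places, since Potri.002G188000 is listed as more than 1 entry. They make up 13.0% of the 54 loci, beside 0.370% of the 17555 expressed loci (65 loci). The hairpins inside the loci were MIR408, MIR1444a, MIR398c, MIR399f, MIR159b and MIR393c. Among all expressed loci, 4 held a hairpin of a copper family (miR397, miR398, miR408, miR857 or miR1444), and these 4, which are entries at 3 places, were among the 54, beside 3 of the 61 other expressed hairpin loci. The MIR398c locus reached 5 FPKM only in the groups with Cd, and the MIR393c locus only in +CdL. Both thus counted as expressed through the side on which they are high. The hairpins were looked for in these loci after the Cd differences were known, so these shares carry no test. Hairpins were placed in loci by position only, without regard to strand, so a locus may be read from the other strand than its hairpin. The genome build of neither table is given in the sources used here. Within the small RNA table, the places of nested hairpins fitted each other to the base in 49 of 49 plus-strand pairs and in 6 of 6 pairs of a plus-strand entry with a minus-strand entry that bears a Populus name. The 6 hairpins named here fall in those kinds. Other pairs with a minus-strand entry were off by up to 188 bases.

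The mature small RNAs that identify these hairpins are shown because they tie the mRNA loci to the small RNA libraries. Letters are as deposited in the small RNA table, 5′ to 3′, with bases 2 to 8 (called the seed here) in capitals.
ptc-miR408-3p: aTGCACTGcctcttccctggc
ptc-miR1444a_R+1: tCCACATTcggtcaatgttcc
ptc-miR398c-5p_1ss12AG: gGAGCGACctggaatcacatg
ptc-miR398b: tGTGTTCTcaggtcgcccctg
ptc-miR399f: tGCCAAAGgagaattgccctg
ptc-MIR399f-p5: gGGCTTTAtcctcctttggcaaa
ptc-miR393a-5p_R+1: tCCAAAGGgatcgcattgatct
ptc-miR159a: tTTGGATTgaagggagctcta
The seeds of these 8 sequences all differ. The sequences ptc-miR398b, ptc-miR399f and ptc-miR159a are each listed at 2 hairpins, so their reads cannot be assigned to 1 locus, whereas ptc-miR408-3p, ptc-miR1444a_R+1, ptc-miR398c-5p_1ss12AG, ptc-MIR399f-p5 and ptc-miR393a-5p_R+1 are listed at 1.

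The hairpins of the 4 loci whose small RNAs carry the comparison follow, as the small RNA table gives them, with the 2 arms in capitals. MIR408 lies on the plus strand of chromosome 2, 14792892 to 14793006, and MIR399f on the plus strand of chromosome 4, 4817044 to 4817144. MIR1444a lies on the minus strand of chromosome 8, 9457700 to 9457788, and MIR398c on the minus strand of chromosome 9, 6766516 to 6766612.
MIR408: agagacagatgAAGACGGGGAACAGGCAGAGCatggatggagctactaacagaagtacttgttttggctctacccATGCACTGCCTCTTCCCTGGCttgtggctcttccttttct
MIR1444a: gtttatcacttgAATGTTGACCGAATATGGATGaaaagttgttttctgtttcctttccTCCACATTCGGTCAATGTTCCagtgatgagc
MIR398c: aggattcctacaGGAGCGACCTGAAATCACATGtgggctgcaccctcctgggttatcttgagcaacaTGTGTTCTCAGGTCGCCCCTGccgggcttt
MIR399f: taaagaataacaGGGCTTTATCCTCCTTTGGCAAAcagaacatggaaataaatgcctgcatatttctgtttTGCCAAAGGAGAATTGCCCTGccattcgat
Both marked arms of MIR408, MIR1444a and MIR399f are in the small RNA table as sequenced, and for MIR398c the 3′ arm is. The 5′ sequence found for MIR398c, ptc-miR398c-5p_1ss12AG, differs from the marked arm by 1 base.

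MIR408 sits in Potri.002G188000 (chromosome 2, 14792735 to 14793844), which the mRNA table lists as 3 entries with 1 interval. The entries called (a) and (b) here had the highest Cd differences of the 54 loci when averaged over sulfate. For entry (b), libraries without Cd read 13.6, 34.4 and 6.89 FPKM in -CdL, 19.3, 10.3 and 17.9 in -CdM and 1.74, 8.72 and 8.24 in -CdH, and those with Cd read 118, 139 and 142 in +CdL, 66.1, 29.9 and 43.4 in +CdM and 44.8, 22.7 and 19.7 in +CdH. The 3 libraries with Cd stood above the 3 without it at every sulfate level, and those at low sulfate with Cd stood above all other libraries. For entry (a), libraries without Cd read 36.3, 2.82 and 2.57 FPKM in -CdL, 3.53, 3.79 and 5.84 in -CdM and 0, 0 and 5.93 in -CdH, and those with Cd read 88.9, 71.3 and 148 in +CdL, 19.1, 52.5 and 38 in +CdM and 27, 11 and 12.5 in +CdH. Its groups also did not overlap at any level, and 2 libraries were listed at 0, which can be a failed estimate. The Cd differences of entry (b) were 3.06 (low sulfate), 1.47 (middle) and 2.17 (high), and those of entry (a) were 3.63 (low sulfate), 2.71 (middle) and 3.12 (high). Since reads can be split between entries of 1 interval, the 3 entries were also summed, and the sum differed by 3.11, 2.02 and 2.61 on the log2(FPKM + 1) scale.

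The small RNA of the same hairpin was higher with Cd too. For ptc-miR408-3p, libraries without Cd read 3202, 2920.0 and 1501 CPM in -CdL, 1977, 2266 and 2347 in -CdM and 2893, 2722 and 3473 in -CdH, and those with Cd read 11909.7, 18536 and 9938 in +CdL, 14073, 15278 and 17386 in +CdM and 21738, 9966 and 14763 in +CdH. CPM are reads scaled to the library totals over the tested sequences, with those totals adjusted by the TMM size factors of edgeR. All 9 libraries with Cd stood above all 9 without it. Averaged over sulfate, ptc-miR408-3p rose by a log2 difference of 2.53 ± 0.18 (SE, edgeR quasi-likelihood test, adjusted p = 1.6e-09, 9 of 9 libraries with Cd above the mean of the matching group). The other arm, hbr-miR408a_R-1_1ss6TG, rose by 2.51 ± 0.17 (edgeR, adjusted p = 1.4e-09). With Cd, ptc-miR408-3p averaged 13461 ± 4504, 15579 ± 1677 and 15489 ± 5919 CPM at low, middle and high sulfate (SD, n = 3), while entry (b) averaged 133 ± 12.9, 46.5 ± 18.3 and 29.1 ± 13.7 FPKM. The mean of ptc-miR408-3p was thus not highest at low sulfate, whereas stu-miR408b-3p_R+1, a less abundant sequence of the same arm, averaged 448 ± 138, 332 ± 66.2 and 295 ± 146 CPM, in the order of the mRNA. The interaction of neither sequence passed the threshold (edgeR, adjusted p = 0.719 and 0.705).

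MIR1444a sits in XLOC_020748 (chromosome 8, 9457348 to 9457833), a locus with no gene identifier. At this locus, libraries without Cd read 61.6, 45.4 and 37.6 FPKM in -CdL, 47.8, 58.3 and 27.8 in -CdM and 29.7, 39.7 and 39.3 in -CdH, and those with Cd read 165, 255 and 164 in +CdL, 75, 97.4 and 96.2 in +CdM and 101, 70.1 and 91.9 in +CdH. The groups did not overlap at any level, nor did all 9 libraries with Cd and all 9 without it. The Cd differences were 1.99 (low sulfate), 1.04 (middle) and 1.25 (high). For its small RNA ptc-miR1444a_R+1, libraries without Cd read 5839.8, 5486 and 3765 CPM in -CdL, 3418, 5149 and 4430.3 in -CdM and 5077, 5006 and 5424 in -CdH, and those with Cd read 6148, 12537 and 9174 in +CdL, 9527, 9961 and 11199.8 in +CdM and 13078, 11212 and 8964 in +CdH. These groups did not overlap either, although +CdL1 stood close to the highest library without Cd. The small RNA rose by 1.07 ± 0.14 (SE, log2; edgeR, adjusted p = 1.4e-05), and the other arm, ptc-MIR1444a-p5, by 1.27 ± 0.19 (edgeR, adjusted p = 5.6e-05), both in 9 of 9 libraries.

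MIR398c sits at one end of Potri.009G067800 (chromosome 9, 6759492 to 6766833), a locus of 7341 bases, so most of that locus is not the hairpin. At this locus, libraries without Cd read 3.91, 3.59 and 3.46 FPKM in -CdL, 3.5, 4.54 and 5.67 in -CdM and 2.32, 4.43 and 7.03 in -CdH, and those with Cd read 13, 25.2 and 18.8 in +CdL, 6.86, 8.46 and 9.8 in +CdM and 10.1, 7.21 and 6.87 in +CdH. The groups did not overlap at low and middle sulfate, and at high sulfate -CdH3 stood above +CdH3. For the small RNA of the 5′ arm, ptc-miR398c-5p_1ss12AG, libraries without Cd read 59.7, 64.5 and 34.6 CPM in -CdL, 42.2, 33.6 and 107 in -CdM and 41.2, 96.6 and 68.8 in -CdH, and those with Cd read 288, 365 and 357 in +CdL, 234, 212 and 129.6 in +CdM and 209, 222 and 186 in +CdH. The 9 libraries with Cd stood above the 9 without it, and those at low sulfate with Cd stood highest, as in the mRNA libraries. It rose by 1.96 ± 0.23 (SE, log2; edgeR, adjusted p = 1.5e-06). The 3′ arm ptc-miR398b, which a second hairpin shares, rose by 2.35 ± 0.19 (edgeR, adjusted p = 1.6e-08). Its level with Cd was 3531 ± 1304 CPM at low and 7510.1 ± 642 at middle sulfate (SD, n = 3), the opposite order to the 5′ arm, at 337 ± 42.5 and 192 ± 55.1 CPM. This order was not tested by itself, and neither arm's Cd by sulfate interaction passed the threshold (edgeR, adjusted p = 0.373 for the 5′ arm and 0.104 for the 3′ arm).

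**Figure D1:**
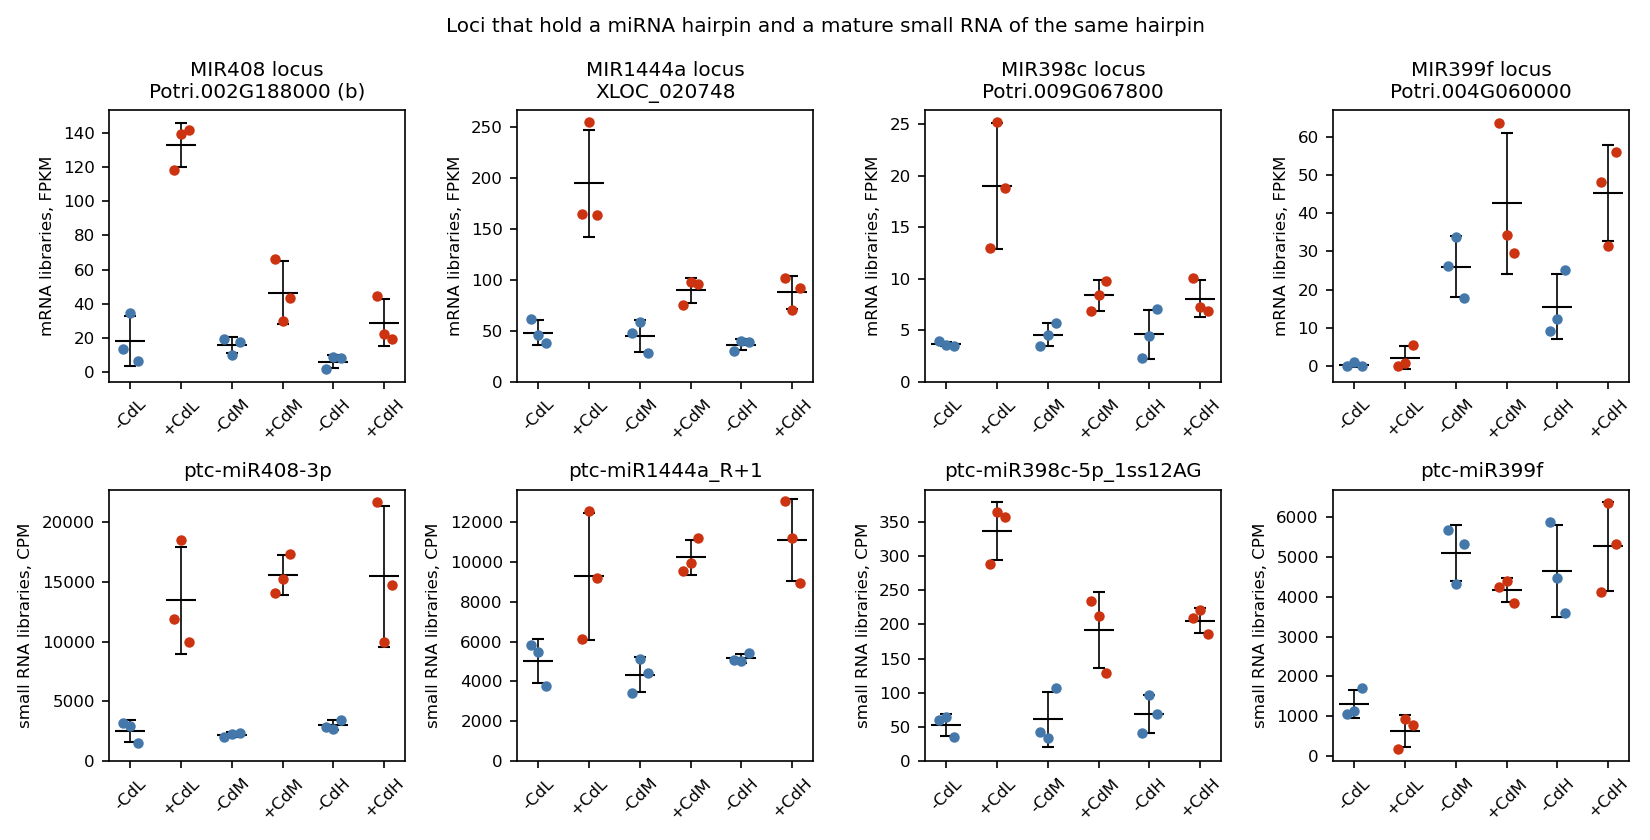
FPKM in each mRNA library (top) and CPM in each small RNA library (bottom) for 4 loci that hold a miRNA hairpin and a small RNA of that hairpin, by group on the x axis; blue points are libraries without Cd and red points libraries with Cd, and bars are the mean ± SD of 3 libraries. For MIR408, MIR1444a and MIR398c both readouts were higher with Cd. In contrast, ptc-miR399f, which a second hairpin shares, stood at 1297 ± 353 CPM in -CdL and 5105 ± 702 CPM in -CdM. It did not follow the MIR399f locus with Cd.

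MIR399f sits in Potri.004G060000 (chromosome 4, 4816978 to 4817667). At this locus, libraries without Cd read 0, 1 and 0 FPKM in -CdL, 26.1, 33.9 and 17.9 in -CdM and 9.19, 12.2 and 25.2 in -CdH, and those with Cd read 0, 0.895 and 5.62 in +CdL, 63.7, 34.4 and 29.7 in +CdM and 48.3, 31.4 and 56 in +CdH. With or without Cd, all 6 libraries at low sulfate stood below all 12 others, and 3 of them were listed at 0. With and without Cd overlapped at low and at middle sulfate, so the Cd differences, 0.88 (low sulfate), 0.66 (middle) and 1.56 (high), rest on wide groups, and at low sulfate on levels under 6 FPKM.

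The small RNAs of that hairpin did not rise with Cd, although reads of ptc-miR399f, which a second hairpin shares, cannot be assigned to this locus alone. For ptc-miR399f, libraries without Cd read 1057, 1131 and 1701 CPM in -CdL, 5669.6, 4319 and 5327 in -CdM and 5890.1, 4488 and 3589.6 in -CdH, and those with Cd read 184, 928 and 779 in +CdL, 4258, 4409.6 and 3838 in +CdM and 4122, 6353 and 5332 in +CdH. At low sulfate the 3 libraries with Cd stood below the 3 without it, at middle and high sulfate the groups overlapped, and the 6 libraries at low sulfate stood below all others. At low sulfate alone its Cd effect was -1.04 ± 0.38 (SE, log2; edgeR, adjusted p = 0.0644). Its Cd effect averaged over sulfate was -0.38 ± 0.22 (SE, log2; edgeR, adjusted p = 0.193), and ptc-MIR399f-p5 fell by 1.35 ± 0.38 (edgeR, adjusted p = 0.0128, below the matching mean in 9 of 9 libraries). By sulfate the locus and its small RNAs went the same way. At low against middle sulfate, averaged over Cd, the locus fell by 4.26 ± 0.40 (SE, log2(FPKM + 1); limma, adjusted p = 1.2e-05), ptc-miR399f by 2.35 ± 0.28 (edgeR, adjusted p = 1.1e-06) and ptc-MIR399f-p5 by 1.49 ± 0.46 (edgeR, adjusted p = 0.0227), each below the middle-sulfate mean in 6 of 6 libraries. Without +CdM1 the last of these was no longer past the threshold (log2 difference -1.21, edgeR adjusted p = 0.052).

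MIR393c and MIR159b sit in XLOC_033663 (chromosome 15, 15035868 to 15036997) and XLOC_033176 (chromosome 15, 3960586 to 3961205), which have no gene identifier. miR393 is known in Arabidopsis for acting on auxin receptor transcripts, and miR159 for acting on transcripts of MYB factors. XLOC_033663 was low: libraries without Cd read 4.81, 1.61 and 3.93 FPKM in -CdL, 2.74, 0.929 and 1.49 in -CdM and 4.21, 0 and 2.54 in -CdH, and those with Cd read 5.34, 12.7 and 4.91 in +CdL, 3.18, 3.65 and 5.66 in +CdM and 6.2, 4.22 and 3.24 in +CdH. It reached a mean of 5 FPKM in 1 group only, +CdL, and so passed the filter through the side with Cd. Its groups overlapped at high sulfate. Library -CdH2 was listed at 0, which can be a failed estimate, and the Cd difference at high sulfate, 1.04, rests in part on it. XLOC_033663 passed the rule in 15 of 18 repeats that each left out 1 library. At XLOC_033176, libraries without Cd read 9.27, 7.88 and 7.5 FPKM in -CdL, 5.59, 4.08 and 4.92 in -CdM and 5.57, 5.99 and 5.44 in -CdH, and those with Cd read 16, 15 and 13.2 in +CdL, 8.43, 7.94 and 10.1 in +CdM and 10.03, 9.34 and 8.27 in +CdH, and its groups did not overlap at any level. Their small RNAs showed no Cd effect past the threshold for ptc-miR393a-5p_R+1 (-0.24 ± 0.17; edgeR, adjusted p = 0.303), for ptc-miR159a (0.28 ± 0.13; edgeR, adjusted p = 0.117) and for the other arm of miR393c (-0.07 ± 0.17; edgeR, adjusted p = 0.782).

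Over all 6 places, 15 of 17 small RNA sequences had enough reads to test. Averaged over sulfate, 8 were higher with Cd and 1 was lower, where 13.3% of all 368 tested sequences were higher and 13.6% lower. The 8 are 7 of the miR408, miR1444 and miR398 hairpins and gma-miR159a-5p_L-1R-1, whose 0.67 ± 0.25 (edgeR, adjusted p = 0.0498) sat at the threshold and lost it in 14 of the alternative fits. At low against middle sulfate, 0 were higher and 2, both of MIR399f, were lower, beside 14.1% and 8.42% of all sequences. The Cd by sulfate interaction was past the threshold for 0 of the 15 (5.98% of all sequences), with 2 at an unadjusted p under 0.05 in edgeR and 1 called by DESeq2. That the copper families were higher with Cd was known when the loci were chosen, so their small RNAs are not independent support for the choice.

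The loci that these small RNAs cut were looked up in the degradome, which records the 5′ ends of cleaved transcripts. A category of 0 marks a site that holds the most reads on its transcript. Of the expressed loci, 9 had such a site for a small RNA of the 6 hairpins, and 0 of them were among the 54. Averaged over sulfate, 2 of the 9 were higher and 2 lower with Cd, where 11.9% of 23166 tested loci were higher and 16.2% lower (limma). The locus with the deepest site was Potri.001G388900 (chromosome 1, 40683040 to 40685189), cut by ptc-miR1444a_R+1 with 6061 raw reads in the pool without Cd and 6445 in the pool with Cd. At this locus, libraries without Cd read 230.0, 263 and 256 FPKM in -CdL, 827, 614 and 611 in -CdM and 335, 511 and 372 in -CdH, and those with Cd read 88.9, 56.2 and 96.2 in +CdL, 273, 273 and 215 in +CdM and 359.8, 365 and 331 in +CdH. At low and at middle sulfate every library with Cd stood below every library without it, and at high sulfate the groups overlapped. It fell by 1.09 ± 0.11 (SE, log2(FPKM + 1); limma, adjusted p = 7.2e-06, below the matching mean in 9 of 9 libraries), while XLOC_020748, which holds the hairpin, was higher with Cd. Neighbouring identifiers share the miR1444 site, so reads may be split among near-identical copies. Potri.001G209300, cut by stu-miR408b-3p_R+1 with 4 raw reads in the pool with Cd and 0 without, differed by -0.61 ± 0.30 (limma, adjusted p = 0.147), and Potri.007G100600, cut by the same sequence with 7 raw reads against 0, by 0.08 ± 0.07 (limma, adjusted p = 0.407). Potri.011G052600, cut by ptc-miR399f, fell by 0.36 ± 0.11 (limma, adjusted p = 0.0272, below the matching mean in 7 of 9 libraries), and lost its call in 6 of the alternative fits. The 2 that rose, Potri.002G207800 by 0.35 ± 0.08 and Potri.014G134800 by 0.34 ± 0.07 (limma, adjusted p = 0.00393 and 0.00352), are cut by ptc-miR393a-5p_R+1, which itself had no Cd effect past the threshold.

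The 54 loci spread over 17 chromosomes, with 8 on chromosome 1 and 6 on chromosome 10. They were short, with a median span of 1642 bases beside 3936 for all expressed loci, and 5 of 54 (9.26%) had no gene identifier beside 2.11% of expressed loci. Their mean level ran from 3.48 to 700.2 FPKM with a median of 17.5, beside 15.3 for all expressed loci. Of the 54, 29 reached 5 FPKM in all 6 groups and 14 reached it only in groups with Cd, so these 14 passed the filter through the side on which they are high. All 54 had a mean of at least 1 FPKM and were tested between sulfate levels. Their median within-group SD was 0.41 on the log2(FPKM + 1) scale, beside 0.17 for all expressed loci, and a rule on differences of means also takes in loci of wide spread.

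At single sulfate levels, 0.6 was passed by 383 loci (2.18%) under low, 731 (4.16%) under middle and 623 (3.55%) under high sulfate, and the 54 (0.308%) passed at all 3. The median Cd difference of the 54 was 0.92 under low, 1.01 under middle and 1.05 under high sulfate, beside -0.01, 0.00 and 0.01 for all expressed loci. The difference was largest at low sulfate for 20 loci, at middle for 21 and at high for 13, so no level led for most of them. It reached 1 at every level for 10 of the 54. The libraries with Cd stood above those without it for 40 loci under low, 48 under middle and 38 under high sulfate, where 10.5%, 17.3% and 15.3% of expressed loci did so in any case. For 30 loci this held at every level (1.56% of expressed loci), and for 14 all 9 libraries with Cd stood above all 9 without. How many of all expressed loci kept the 9 and 9 libraries apart was not counted, so the 14 have no share to be set beside. As the rule used this contrast, nothing is read from these shares.

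**Figure D2:**
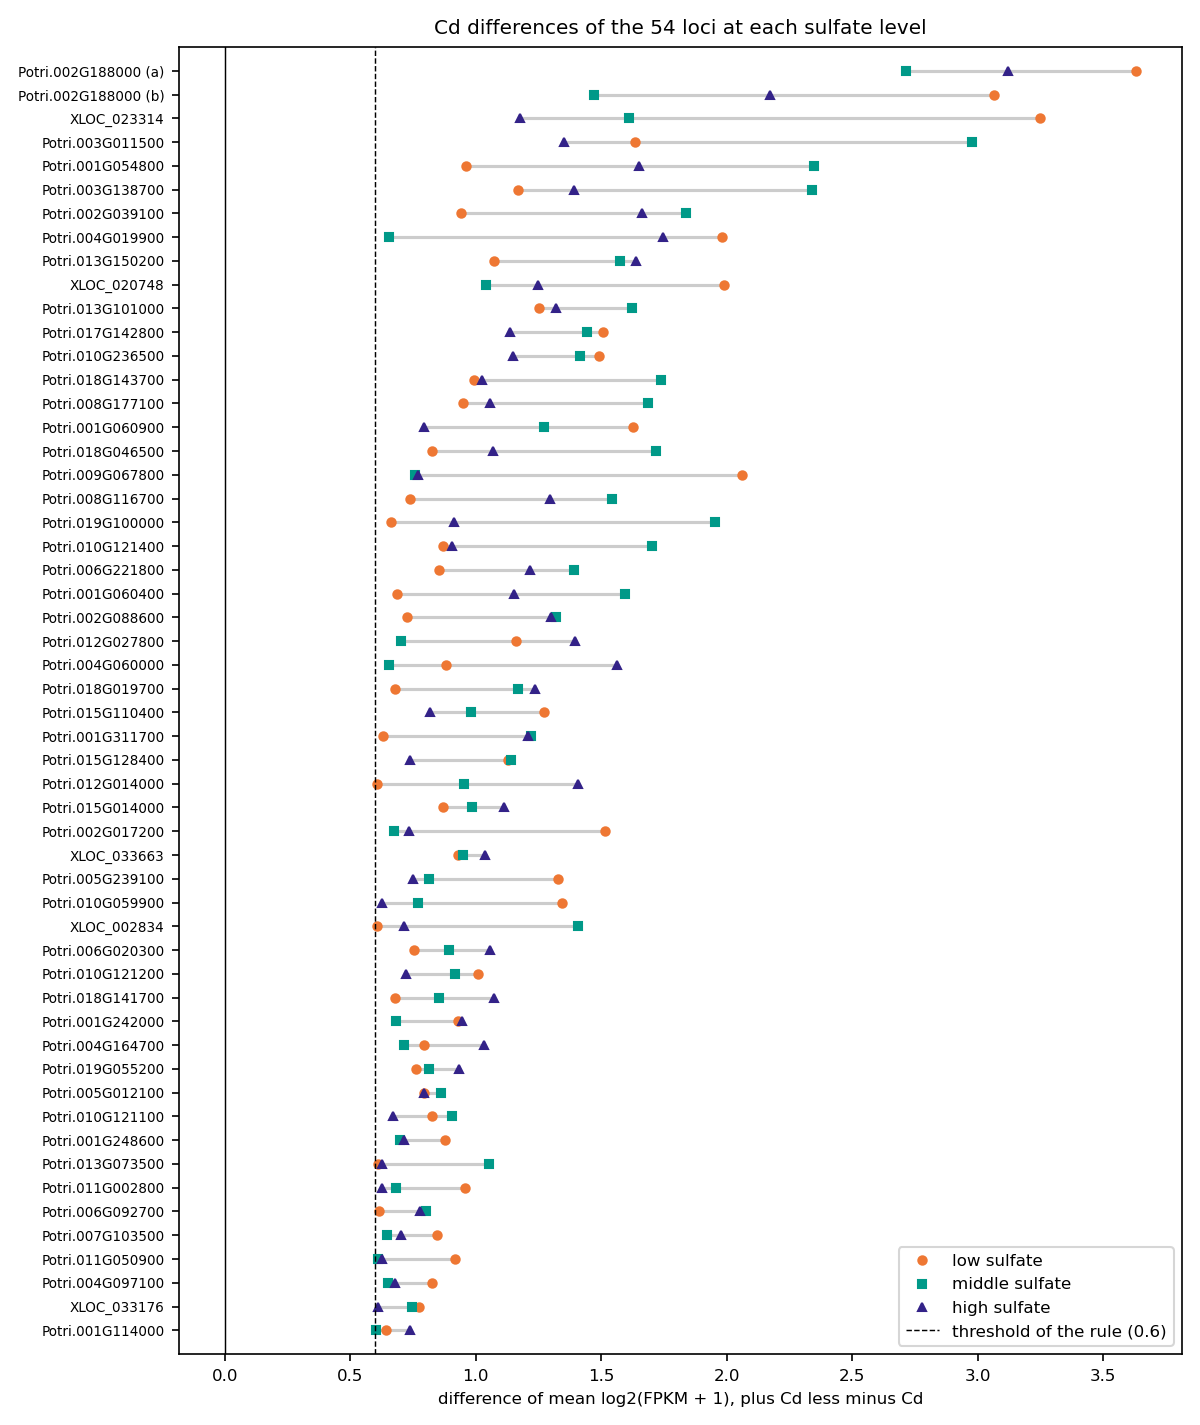
Difference of group means of log2(FPKM + 1), plus Cd less minus Cd (x axis), for each of the 54 loci (y axis, sorted by the average), with 1 symbol per sulfate level; the dashed line is the threshold of 0.6. All points lie right of the line by the rule, the (a) and (b) entries of Potri.002G188000 have the highest averages (3.15 and 2.24), and the order of the 3 levels varies from locus to locus.

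The third highest average, 2.01, belonged to XLOC_023314 (chromosome 10, 12168106 to 12168900), another locus with no identifier. There, libraries without Cd read 18.4, 13.7 and 11.4 FPKM in -CdL, 13.6, 13.6 and 14.1 in -CdM and 9.75, 17.3 and 19 in -CdH, and those with Cd read 131, 158 and 143 in +CdL, 31.5, 51.2 and 53.1 in +CdM and 43.4, 37.4 and 25.6 in +CdH. All 9 libraries with Cd stood above all 9 without it, and the 3 at low sulfate with Cd stood above all others, the order also seen for the MIR408 and MIR1444a loci. Its Cd differences were 3.25 (low sulfate), 1.61 (middle) and 1.18 (high), the widest range among the 54, and no hairpin of the small RNA table lies in it. Of the other loci with an average among the 12 highest, Potri.003G011500 (chromosome 3, 1270673 to 1271511) was listed at 0 in 14 libraries and between 15.6 and 29.0 FPKM in the other 4, all with Cd, while a second entry of the same interval held about 1 FPKM throughout. Such values can be failed estimates, and its Cd difference has no firm size. Potri.001G054800 and Potri.002G039100 averaged 1.65 and 1.48 at mean levels of 3.54 and 6.26 FPKM. Potri.013G150200 averaged 1.43 and Potri.017G142800 averaged 1.36, both without overlap at any sulfate level.

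The most abundant of the 54 was Potri.013G101000 (chromosome 13, 11347120 to 11349338). There, libraries without Cd read 312, 330.4 and 455 FPKM in -CdL, 356, 335 and 434 in -CdM and 157, 510.3 and 574 in -CdH, and those with Cd read 741, 808 and 1066 in +CdL, 676, 1765 and 1274 in +CdM and 1289, 631 and 889.9 in +CdH. The lowest library with Cd, +CdH2, stood above the highest without it, -CdH3, and +CdM1 was far below the other 2 libraries of its group. Its Cd differences were 1.25 (low sulfate), 1.62 (middle) and 1.32 (high). Potri.003G138700 (chromosome 3, 15663752 to 15664535) averaged 1.63, and libraries without Cd read 222, 202 and 222 FPKM in -CdL, 98.3, 189 and 192 in -CdM and 96.8, 163 and 230.4 in -CdH, and those with Cd read 267, 646 and 662 in +CdL, 774, 827 and 738 in +CdM and 460.0, 455 and 317 in +CdH. Here too all libraries with Cd stood above all without, +CdL1 being much the lowest of its group. Potri.010G236500 (chromosome 10, 21618253 to 21620267) differed by 1.49 (low sulfate), 1.41 (middle) and 1.15 (high). Its means were 216 ± 40.3, 209 ± 24.7 and 217 ± 47.5 FPKM without Cd and 616 ± 172, 559 ± 76.9 and 478 ± 60.3 with Cd at low, middle and high sulfate (SD, n = 3), with no overlap of the 9 and 9 libraries.

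Potri.019G100000 (chromosome 19, 12969139 to 12970409) averaged 1.18 and overlapped at low and high sulfate, since -CdH2 and -CdH3 read 836 and 818 FPKM and +CdL1 only 293. XLOC_002834 (chromosome 1, 7313635 to 7313912), with no identifier and a span of 277 bases, read 426 ± 54.4 and 652 ± 119 FPKM at low sulfate and 421 ± 106 and 1099 ± 76.3 at middle sulfate without and with Cd (SD, n = 3). Potri.019G055200, Potri.006G092700 and Potri.006G221800, also among the 8 most abundant, had average differences of 0.84, 0.73 and 1.15. The abundant loci thus had Cd differences in the range of the rest.

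**Figure D3:**
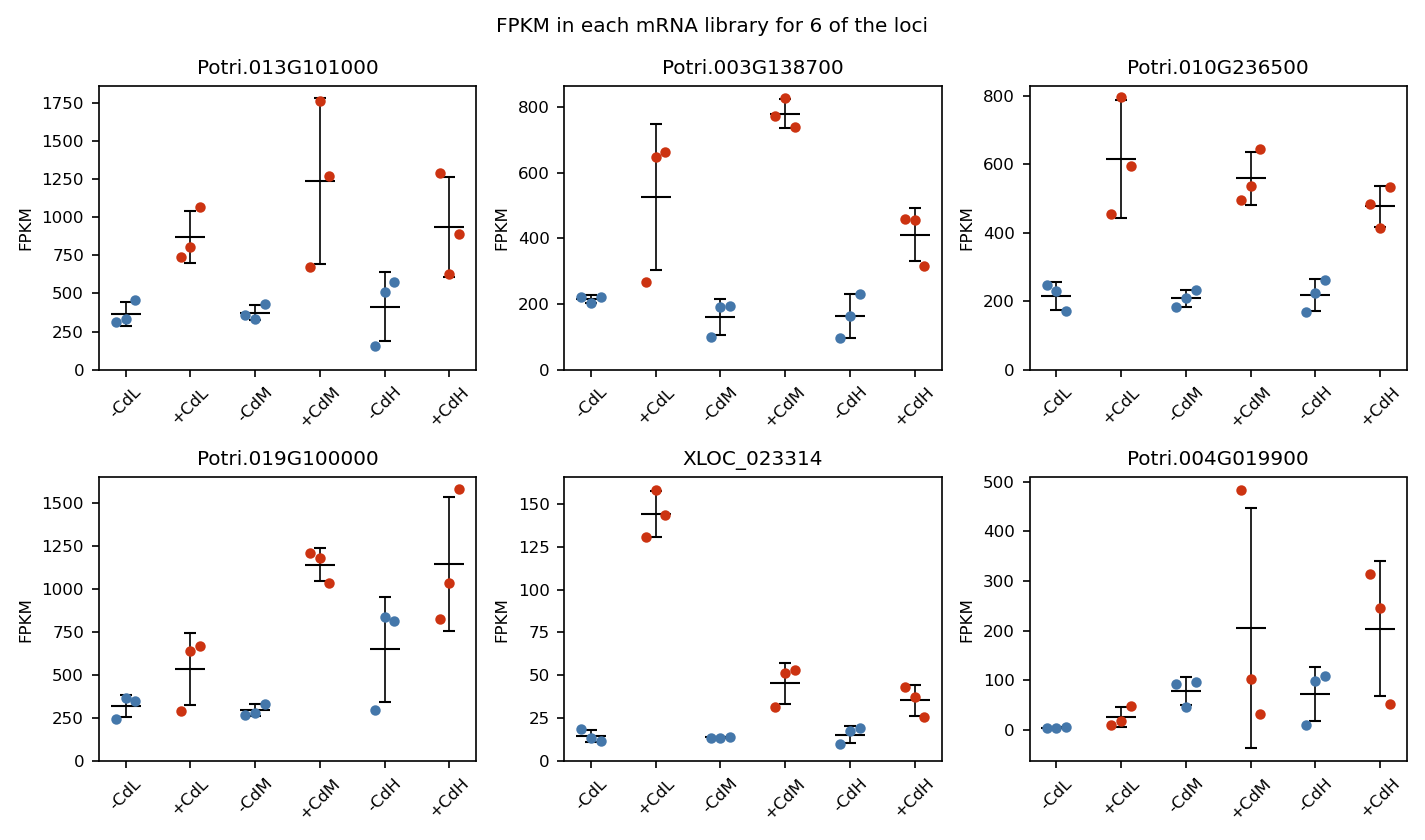
FPKM in each of the 18 mRNA libraries (y axis) by group (x axis) for 6 of the 54 loci; blue points are libraries without Cd, red points libraries with Cd, and bars are the mean ± SD of 3 libraries. The top row and XLOC_023314 show no overlap of the 9 and 9 libraries, while Potri.019G100000 and Potri.004G019900 do overlap, the latter ranging from 32.2 to 483 FPKM within +CdM.

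Of the 14 loci whose 9 libraries with Cd all stood above the 9 without it, 5 are described above (XLOC_023314, XLOC_020748, Potri.013G101000, Potri.003G138700 and Potri.010G236500). Among the others, Potri.006G092700 was the most abundant, between 78.9 and 130.4 FPKM (median 101) without Cd and between 137 and 213 FPKM (median 170.2) with Cd. Potri.001G311700 followed, between 27.4 and 41.4 FPKM (median 34.8) without Cd and between 48.5 and 103 FPKM (median 73.7) with Cd. Potri.015G128400 was next, between 12.7 and 30.4 FPKM (median 22.5) without Cd and between 32 and 74.2 FPKM (median 44.3) with Cd. The average differences of these 3 were 0.73, 1.02 and 1.00.

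Potri.012G027800 lay between 10.1 and 20.8 FPKM (median 18.6) without Cd and between 28.8 and 59.4 FPKM (median 32.6) with Cd. Potri.017G142800 lay between 9.17 and 16.8 FPKM (median 11.6) without Cd and between 26.2 and 49.3 FPKM (median 34) with Cd. Potri.010G059900 lay between 7.5 and 17.4 FPKM (median 13.6) without Cd and between 18.5 and 31.9 FPKM (median 27.2) with Cd. The gap between the highest library without Cd and the lowest with Cd was wide in Potri.017G142800 and narrow in Potri.010G059900. The remaining loci of the 14 were lower in level. Potri.008G177100 lay between 4.15 and 10.4 FPKM (median 5.58) without Cd and between 10.4 and 22.5 FPKM (median 15.4) with Cd. Its highest library without Cd, -CdH1, and its lowest with Cd, +CdH3, were nearly equal, at 10.4034 and 10.4042 FPKM. Potri.013G073500 lay between 5.23 and 8.87 FPKM (median 7.66) without Cd and between 10.1 and 15 FPKM (median 12.9) with Cd, and Potri.015G014000 lay between 4.48 and 6.25 FPKM (median 5.56) without Cd and between 9.67 and 14.6 FPKM (median 11.3) with Cd. Their average differences were 1.23, 0.76 and 0.99.

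Other abundant loci overlapped between some libraries of different sulfate levels. Potri.019G055200 lay between 132 and 296 FPKM (median 173) without Cd and between 182 and 456 FPKM (median 368) with Cd. Potri.006G221800 lay between 39.8 and 74.4 FPKM (median 60.7) without Cd and between 68.7 and 253 FPKM (median 142) with Cd. Potri.018G141700 lay between 38.7 and 85 FPKM (median 64.6) without Cd and between 71.9 and 164 FPKM (median 104) with Cd. Within a sulfate level the last 2 of these did not overlap at all, and Potri.019G055200 overlapped at low sulfate.

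Several loci of middling level had wide Cd groups. Potri.018G143700 lay between 10.3 and 22.4 FPKM (median 15.7) without Cd and between 20.4 and 66.7 FPKM (median 42.4) with Cd. Potri.018G046500 lay between 7.71 and 26.3 FPKM (median 13.2) without Cd and between 20.2 and 61.1 FPKM (median 36.1) with Cd. Potri.002G088600 lay between 5.65 and 36.2 FPKM (median 18.8) without Cd and between 7.92 and 107 FPKM (median 36.5) with Cd. The first 2 kept the groups apart at every sulfate level and the third overlapped at low sulfate. Potri.005G239100 differed by 1.33 (low sulfate), 0.82 (middle) and 0.75 (high), with an overlap at middle and at high sulfate. Potri.018G019700 differed by 0.68 (low sulfate), 1.17 (middle) and 1.24 (high) and overlapped at low sulfate. Potri.002G017200 differed by 1.51 (low sulfate), 0.68 (middle) and 0.73 (high) and Potri.011G050900 by 0.92 (low sulfate), 0.61 (middle) and 0.63 (high), neither overlapping at any level.

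Among the loci under 10 FPKM, Potri.006G020300 and Potri.001G242000 kept the groups apart at every level, with differences of 0.75 (low sulfate), 0.89 (middle) and 1.06 (high) for the former and 0.93 (low sulfate), 0.68 (middle) and 0.95 (high) for the latter. Potri.001G248600 differed by 0.88 (low sulfate), 0.70 (middle) and 0.71 (high) and overlapped at high sulfate. Potri.007G103500 differed by 0.84 (low sulfate), 0.65 (middle) and 0.70 (high) and overlapped at middle sulfate. Potri.004G097100 differed by 0.82 (low sulfate), 0.65 (middle) and 0.68 (high) and overlapped at low sulfate. At these levels the added 1 FPKM shrinks the differences, which understates the change of low loci.

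Loci near each other on a chromosome were few. A run of 3 of the 54 lay on chromosome 10, where Potri.010G121100 (13786575 to 13789431), Potri.010G121200 (13793337 to 13796081) and Potri.010G121400 (13800019 to 13800931) are separated by gaps of 3906 and 3938 bases. They averaged 0.80, 0.88 and 1.16 at mean levels of 4.61 to 7.32 FPKM. The libraries without Cd did not reach those with Cd at middle sulfate in these 3 loci, and they overlapped at low and high sulfate, where +CdL1 and +CdH3 read low in all 3. Potri.010G121300, which lies between the second and the third, was not higher with Cd, with differences of -0.07, -0.36 and -0.43 at low, middle and high sulfate. On chromosome 1, Potri.001G060400 and Potri.001G060900 lay 34032 bases apart, with 4 loci between them whose Cd differences ran from -0.47 to 0.24.

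The 54 loci were also compared between sulfate levels averaged over Cd, a contrast that the rule did not use. At low against middle sulfate, 7 were higher (13.0% of the 54) and 5 lower (9.26%), where 12.2% and 14.6% of the 23166 tested loci were higher and lower (limma, adjusted p under 0.05), so the share called was near the background. The median difference of the 54 was -0.11, beside 0.01 over all tested loci. Without -CdH1 the number lower was 9, and without +CdM1 it was 3. At high against middle sulfate, 0 of the 54 were called by limma with or without its trend, with 7 at an unadjusted p under 0.05, where 0.229% of all loci were higher and 1.63% lower. The smallest adjusted p there was 0.062, for XLOC_002834.

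The loci lower at low sulfate were led by the MIR399f locus described above and by Potri.004G019900 (chromosome 4, 1318565 to 1321938). At the latter, libraries without Cd read 3.93, 3.86 and 5.58 FPKM in -CdL, 92.2, 46 and 95.5 in -CdM and 9.01, 99 and 108 in -CdH, and those with Cd read 10.1, 16.8 and 48 in +CdL, 483, 102 and 32.2 in +CdM and 314, 245 and 51.8 in +CdH. Of the 6 libraries at low sulfate, 5 stood below all 6 at middle sulfate, and the libraries of +CdM spread from 32.2 to 483 FPKM. Potri.004G019900 fell by 3.13 ± 0.74 (SE, log2(FPKM + 1); limma, adjusted p = 0.0074, in 6 of 6 libraries). Potri.013G150200 fell by 0.90 ± 0.26, Potri.011G002800 by 0.73 ± 0.21 and Potri.010G059900 by 0.48 ± 0.14, with limma adjusted p-values of 0.0187, 0.0193 and 0.0223. Potri.013G150200 lost its call without +CdM1 and Potri.010G059900 without -CdL3, +CdL3 or +CdM1. That these loci were also higher with Cd was set by the rule, so nothing is read from the opposite signs of their sulfate and Cd differences.

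The loci higher at low sulfate included those of MIR1444a and MIR159b. XLOC_033176, the MIR159b locus, rose by 0.67 ± 0.08 (SE, log2(FPKM + 1); limma, adjusted p = 8.6e-05), and was above the middle-sulfate mean of its Cd level in 6 of 6 libraries. Potri.008G116700 rose by 1.01 ± 0.17 (limma, adjusted p = 5.7e-04), Potri.015G110400 by 0.66 ± 0.11 (adjusted p = 6.6e-04) and XLOC_023314 by 0.86 ± 0.18 (adjusted p = 0.00277). For XLOC_023314 the higher mean came from +CdL, since -CdL and -CdM stood at 14.5 ± 3.56 and 13.8 ± 0.3 FPKM (SD, n = 3). Potri.001G060400 rose by 0.63 ± 0.15, Potri.004G164700 by 0.93 ± 0.23 and XLOC_020748, the MIR1444a locus, by 0.62 ± 0.18 (limma, adjusted p = 0.0077, 0.00839 and 0.0228). As for XLOC_023314, the higher mean of XLOC_020748 came from +CdL, with 195 ± 52.3 FPKM against 89.6 ± 12.6 in +CdM, while -CdL and -CdM stood at 48.2 ± 12.2 and 44.6 ± 15.5 FPKM (SD, n = 3). XLOC_020748 lost its call without -CdL1, -CdM3, +CdL2 or +CdM1.

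**Figure D4:**
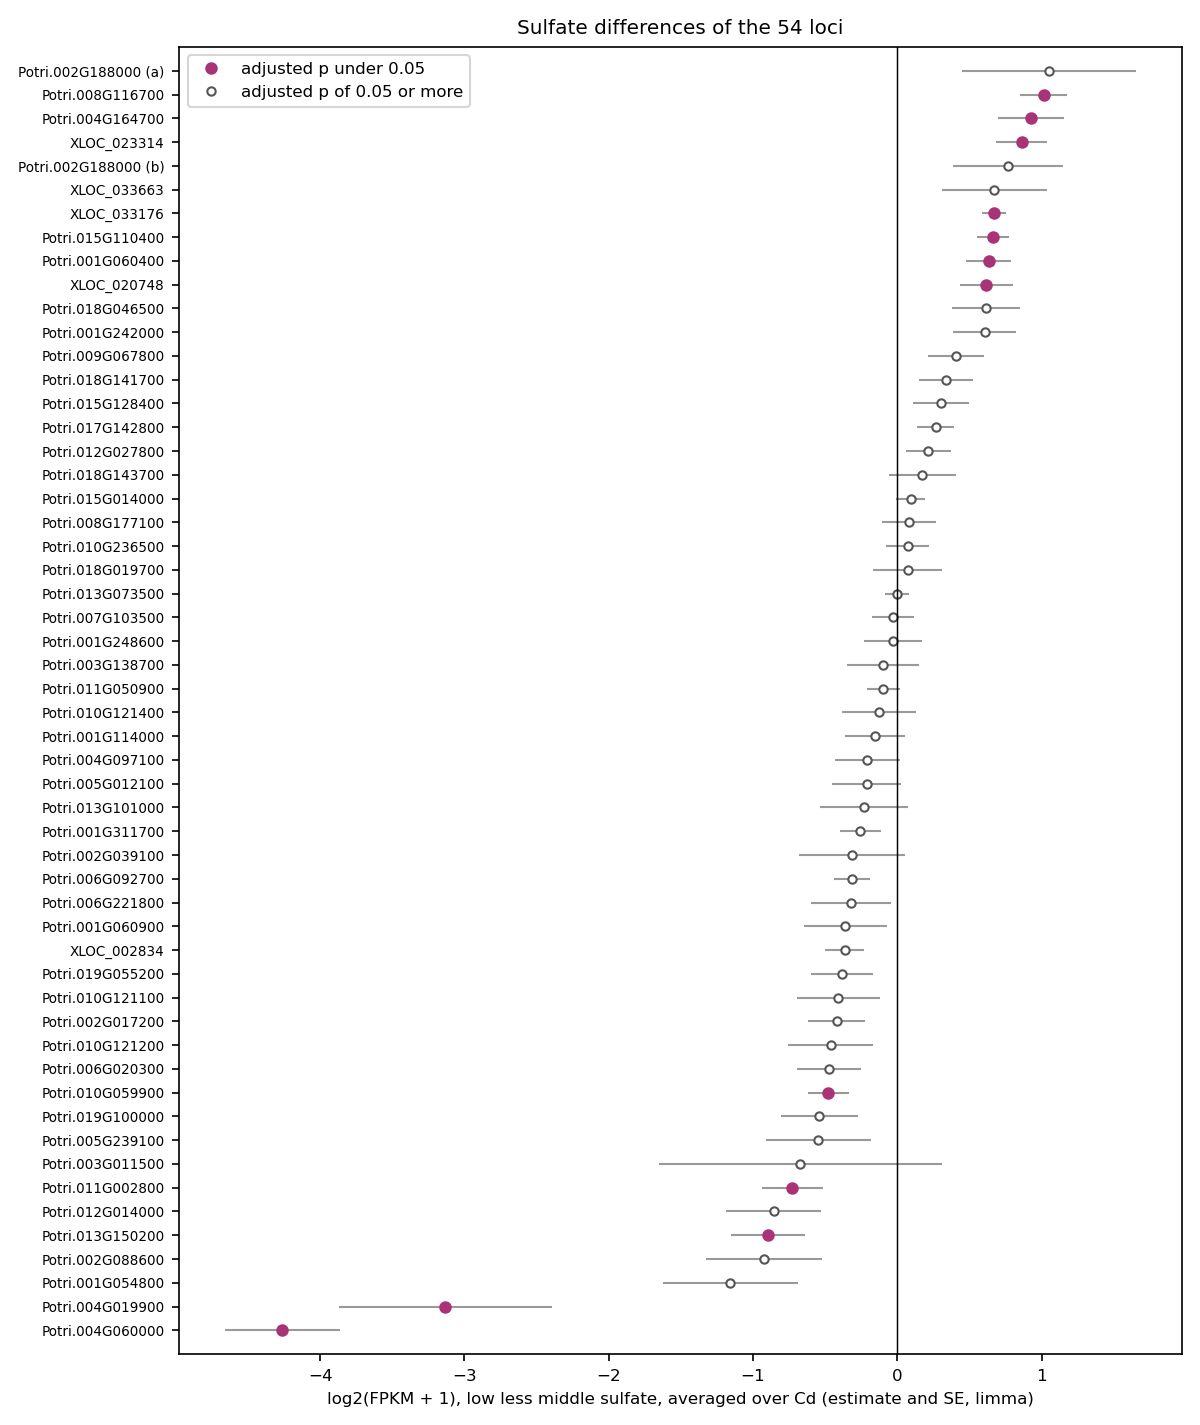
Low less middle sulfate, averaged over Cd, for each of the 54 loci (y axis, sorted), as the limma estimate with its SE on the log2(FPKM + 1) scale (x axis); filled points have an adjusted p under 0.05. Of the 12 filled points 7 lie right of 0 and 5 left, and Potri.004G060000 at -4.26 and Potri.004G019900 at -3.13 stand far from the rest.

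Degradome sites on the transcripts of the 54 loci themselves were looked up as well. Of 12 pairings of a small RNA with 1 of these loci, 9 held at most 1 read in each pool. Of the 48 gene identifiers among the 54 loci, 6 (12.5%) carried a degradome site of any category, beside 3.82% of 16601 identifiers of expressed loci. A category 0 site was carried by 1 of them, beside 0.488%. That site was on Potri.001G114000 (chromosome 1, 9120534 to 9121920), at base 681 of its transcript, where sequences of miR396, a family that acts on transcripts of growth-regulating factors, were aligned. The 3 sequences are shown because they share 1 seed and 1 site.
ptc-miR396a: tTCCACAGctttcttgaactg
ptc-miR396c: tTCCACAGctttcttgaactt
nta-miR396a_R+1_1ss21GT: tTCCACAGctttcttgaacttt
The site held 31 raw reads in the pool without Cd (exact Poisson 95% interval 21.1 to 44.0) and 17 in the pool with Cd (9.90 to 27.2). The intervals overlap, cover counting error only, and there was 1 pool per Cd level, so no test between pools was made. In the mRNA libraries Potri.001G114000 was the locus nearest to the threshold, with differences of 0.64 (low sulfate), 0.60 (middle) and 0.74 (high), and it passed the rule in 10 of 18 repeats that each left out 1 library.

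Among the sequences of that site, ptc-miR396a fell by 0.51 ± 0.17 averaged over sulfate (SE, log2; edgeR, adjusted p = 0.032, below the matching mean in 7 of 9 libraries). At low sulfate ptc-miR396a read 30574, 28757 and 21149 CPM without Cd and 9929, 13212 and 8317 with Cd, and these did not overlap. It did overlap at the other levels, with 16965 to 35417 CPM in +CdM, and its interaction missed the threshold in edgeR (adjusted p = 0.087) and passed it in DESeq2 (0.034). The call averaged over sulfate was lost in 11 of the 18 repeats without 1 library. The other sequences, ptc-miR396c and nta-miR396a_R+1_1ss21GT, had Cd effects of -0.10 ± 0.12 and -0.43 ± 0.20 (edgeR, adjusted p = 0.58 and 0.125).

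The other sites on the 54 loci held at most 1 read per pool, in category 4, the class of single reads. They joined 5′ arm sequences of miR399 hairpins with Potri.004G060000 and Potri.002G039100, ptc-MIR156k-p3 with Potri.018G141700 and Potri.008G177100, ptc-MIR6461-p5_1ss15AG with Potri.001G114000 and the predicted candidate PC-5p-51531_193 with Potri.010G059900. On Potri.004G060000 the alignments fall in the part of the transcript around its own miR399f arm, which lies 138 to 158 bases from the start of the locus. In all, 8 of 11 sequences paired with the 54 loci had enough reads to test, and 3 of them fell with Cd (ptc-miR396a, ptc-MIR399d-p5 and ptc-MIR399g-p5) and 0 rose, where 13.6% of all 368 tested sequences fell and 13.3% rose. Between 1 and 4 fell in the repeats without 1 library, and leaving out -CdL3, +CdM2, +CdH2 or +CdH3 left 1.

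Just inside the threshold were Potri.001G114000, XLOC_002834 and Potri.012G014000, whose smallest Cd difference was 0.60 to 0.61. Just outside it were Potri.004G106400, Potri.019G112000 and Potri.006G038900, with smallest differences of 0.60, 0.60 and 0.59. In all, 39 loci outside it had a smallest difference from 0.5 to 0.6, and 22 of the 54 were under 0.7, so the edge of the group is not sharp. The Cd differences were most equal over sulfate in Potri.005G012100 (0.79 (low sulfate), 0.86 (middle) and 0.79 (high)), XLOC_033663 and Potri.001G114000. They were least equal in XLOC_023314, Potri.003G011500 and entry (b) of Potri.002G188000. The evenness of XLOC_033663 rests in part on library -CdH2, as given above.

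Some libraries stood apart over the 54 loci. Library -CdH1 was the lowest of its 3 for 59.3% of the 54 (41.8% of expressed loci), +CdL1 for 59.3% (37.1%) and +CdH3 for 61.1% (37.6%). Without -CdH1 the rule gave 53 loci, 44 of them among the 54, without +CdL1 it gave 70 with 49 of the 54, and without +CdH3 it gave 63 with 52. Of the 54, 18 passed in every one of the 18 repeats that left out 1 library, among them both entries of Potri.002G188000 and Potri.001G060400, and 43 passed in at least 15. What set these libraries apart was not tested. The mRNA depth is unknown, and the small RNA libraries held 498198 to 2934283 assigned reads each.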

How the data were processed

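The series measured mRNA and small RNA in 18 leaf libraries each, 3 per group, and cleaved RNA ends in 2 degradome pools. The authors deposited FPKM per locus and library, from reads aligned with TopHat2 2.1.1 per the submitters' processing notes; the program that computed FPKM, the genome build and the annotation were not stated in the sources used. For small RNAs the authors deposited expected counts, fractional where reads were split over hairpins, and a normalized signal that was not used. Per the file headers, the degradome tables hold raw read counts at each site, expected counts divided over transcripts, a TPB signal and an alignment score and category score.

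The Cd differences are differences of group means of log2(FPKM + 1). Loci with a mean of at least 1 FPKM (23166) were tested with limma 3.58.1 (R 4.3.3; trend, robust) on log2(FPKM + 1), with Benjamini-Hochberg adjustment over all of them. Small RNA expected counts were rounded to whole numbers and 368 sequences were tested with edgeR 4.0.16 (TMM size factors, quasi-likelihood). DESeq2 1.42.0 was an alternative. The limma and edgeR procedures were also run on simulated data with known differences and independent noise, and the outcome is not reported here. The mRNA depth is unknown, and intervals on degradome reads (95%, exact Poisson) cover counting error only.

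The loci named are the 12 with the highest average Cd difference, the 8 most abundant, up to 5 called in each direction between sulfate levels, the 3 on either side of the threshold, up to 8 with a degradome site, runs of neighbours and the 3 most and 3 least equal over sulfate. The hairpin loci, the cut loci and the further loci named were chosen after their values were seen. The 54 loci and all lists were chosen with earlier results of these data known. The 12 lists by gene product were not tested, since 0 of 39512 identifiers matched the reference table. Same-numbered libraries did not deviate together, so the numbers were not used to pair them. Alternatives were other thresholds, filters, pseudocounts and normalizations, a replicate block and each library left out.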

Additional observations from a re-analysis of the deposited data

How the results depend on the processing

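The rule gave 93 loci at a threshold of 0.5 and 10 at a threshold of 1. It gave 79 with a pseudocount of 0.1, 67 after quantile normalization (all 54 among them) and 52 with group medians in place of means, of which 33 were among the 54. Leaving out 1 library gave 47 to 70 loci. The count lower at low sulfate was 3 to 9 in those repeats, and that lower at high sulfate 0 to 1. Of the small RNAs paired with the loci in the degradome, 1 to 4 fell with Cd and 0 to 1 had an interaction. That interaction count was 2 with no filter on low counts and 1 with DESeq2. Of the small RNAs of the hairpins, 0 to 2 were higher and 1 to 4 lower at low sulfate. The causes were not tested. With the replicate number as a block, 7 loci were higher and 5 lower at low sulfate, as without it; correlations of same-numbered libraries ran from -0.29 to 0.27 for mRNA and from -0.37 to 0.43 for small RNA, and 3 and 7 of 18 libraries correlated best with their own number. No value past its threshold changed sign in the alternatives run, whereas some small values that were not past it did, such as the Cd effect of ptc-MIR393c-p3, at -0.07 and up to 0.05 with 1 library left out. Alternatives for the lists by gene product were not run.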
